A study of Mus musculus with 8 samples.

Results

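This section follows 10 genes that carry excitation-contraction coupling and the calcium store of skeletal muscle, Cacna1s, Cacng1, Stac3, Ryr1, Jph1, Jph2, Atp2a1, Atp2a2, Casq1 and Casq2, which were taken by symbol from the 42391 gene entries of the raw count matrix. RNA was sequenced from C2C12 cells, an immortalised mouse myoblast line, and from primary myoblasts expanded from hindlimb muscle of 5 weeks old mice, after transfection with Septin9 siRNA (Septin9-deficient) or non-targeting siRNA (control). Each of the 4 groups held 2 replicates, from independent experiments. C2C12 cells were collected 60 h after transfection, which included 12 h in differentiation medium, whereas primary myoblasts were collected after 48 h in proliferation medium. By genotype the labels give the controls as WT and the siRNA samples as Septin 9 KD, a transient knockdown and not a deletion. All groups, controls included, were transfected, a single Septin9 siRNA was used, and primary myoblasts had been pre-plated on collagen to remove fibroblastic cells. The sources used here do not say how many mice the primary cultures came from.

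Between 20898611 and 27223414 reads were counted per sample. Septin9 fell in both comparisons, from 409 and 435 CPM (read counts scaled to a common library size with TMM) in control C2C12 cells to 147 and 185, and from 376 and 473 CPM in control primary myoblasts to 208 and 159. The log2 fold changes were -1.36 (SE 0.08) and -1.21 (SE 0.15). The 8 myogenic markers summed to between 949 and 1813 CPM in C2C12 samples and between 3902 and 7601 CPM in primary myoblasts. The 8 fibroblast markers summed to 359 (control) and 328 CPM (Septin9-deficient) in replicate 1 of primary myoblasts and to 848 and 1013 CPM in replicate 2, with Tcf21 at 0 in every sample. In C2C12 samples the fibroblast markers summed to between 2406 and 3117 CPM, above every primary myoblast sample. Endothelial, immune and cardiac marker lists stayed at or below 4.80 CPM in every sample, with the cardiac Myl7 at 0. In these bulk samples, fewer cells that express a gene and less RNA of that gene per cell cannot be told apart.

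In skeletal muscle, depolarisation of the T-tubule moves the voltage sensor CaV1.1 of the dihydropyridine receptor, which opens the ryanodine receptor of the sarcoplasmic reticulum through direct contact. Junctophilins hold both membranes together at the triad, SERCA pumps return calcium to the store, and calsequestrins bind it there. Myoblasts build this machinery as they leave the cell cycle and become myotubes.

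Upstream sequence was available from RefSeq (GRCm38.p6) for 6 of the 10 genes, and it is shown for 4 that were called after Septin9 siRNA in at least 1 cell type and for Jph2, which was called in neither. Each run is printed 5′ to 3′ on the strand of the gene and ends before the first annotated transcribed base. Capitals mark E-boxes, the motif CANNTG that myogenic basic helix-loop-helix factors such as MyoD and myogenin can bind. The runs lie at chr7:126463109-126463323 (minus strand) for Atp2a1, chr7:29125180-29125401 (minus strand) for Ryr1, chr3:102086165-102086414 (plus strand) for Casq2, chr1:136052561-136052749 (plus strand) for Cacna1s and chr2:163398050-163398243 (minus strand) for Jph2.
Atp2a1: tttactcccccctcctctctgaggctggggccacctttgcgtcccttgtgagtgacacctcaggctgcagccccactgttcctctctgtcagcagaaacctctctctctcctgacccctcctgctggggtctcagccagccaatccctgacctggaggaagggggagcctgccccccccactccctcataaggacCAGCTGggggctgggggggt
Ryr1: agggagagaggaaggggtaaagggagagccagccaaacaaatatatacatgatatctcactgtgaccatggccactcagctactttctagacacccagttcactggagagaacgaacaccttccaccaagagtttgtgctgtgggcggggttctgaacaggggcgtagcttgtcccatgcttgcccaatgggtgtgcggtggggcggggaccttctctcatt
Casq2: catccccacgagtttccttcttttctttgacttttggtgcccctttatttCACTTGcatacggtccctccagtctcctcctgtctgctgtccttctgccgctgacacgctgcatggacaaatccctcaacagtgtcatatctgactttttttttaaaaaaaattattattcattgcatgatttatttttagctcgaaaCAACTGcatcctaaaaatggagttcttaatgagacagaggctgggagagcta
Cacna1s: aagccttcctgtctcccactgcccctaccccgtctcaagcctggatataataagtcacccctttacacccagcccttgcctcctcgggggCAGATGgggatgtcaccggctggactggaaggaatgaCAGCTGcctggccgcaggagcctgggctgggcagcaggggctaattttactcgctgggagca
Jph2: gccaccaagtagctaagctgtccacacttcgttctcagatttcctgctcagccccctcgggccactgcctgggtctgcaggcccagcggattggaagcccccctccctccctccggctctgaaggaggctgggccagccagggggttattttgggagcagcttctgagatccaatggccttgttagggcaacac
In the full 250 bases before the RefSeq start site, Casq1, Casq2 and Cacna1s each held 2 E-boxes, Atp2a1 and Jph2 held 1, that of Jph2 in the part not printed, and Ryr1 held 0. Among all 32851 windows of this length in the table, 66.2% held an E-box, a motif that reads the same on both strands. A MEF2 motif was found in Casq2 alone, 69 bases before its start, compared with 2.92% of all windows. The CArG box of serum response factor and TATAAA on either strand matched in none of the 6 windows, compared with 1.47% and 12.4% of all windows. These matches were by letters alone and were not examined for binding.

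To place the siRNA effects, the levels in the controls were compared first. Expressed as TPM, which scales counts by gene length as well as library size, control C2C12 cells had 3 abundant members. Jph2 stood at 184 and 186 TPM in replicates 1 and 2, Cacng1 at 137 and 203, and Atp2a2 at 152 and 131. Both values of Jph2 were above both of Atp2a2, whereas those of Cacng1 overlapped with each, so that its place was not resolved. Jph1 followed at 10.7 and 12.2 TPM, below every one of these values. Atp2a1 (2.72 and 8.73 TPM), Stac3 (2.29 and 8.67), Casq2 (1.34 and 2.80) and Ryr1 (0.563 and 1.76) came next, each overlapping its neighbour. Casq1 and Cacna1s were the lowest, at 0.256 and 0.406 TPM and at 0.127 and 0.403 TPM. In raw counts this amounted to 3 and 6 reads for Casq1 and 5 and 20 reads for Cacna1s in control replicates 1 and 2, so that counting error alone was wide for both genes.

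Control primary myoblasts expressed the whole set. Casq2 stood at 851 and 208 TPM in replicates 1 and 2 and Atp2a1 at 677 and 190, followed by Atp2a2 (397 and 283), Jph2 (370 and 260), Cacng1 (332 and 106), Casq1 (288 and 106) and Stac3 (149 and 85.3). The lowest were Cacna1s at 98.1 and 31.9 TPM, Ryr1 at 58.8 and 19.7 and Jph1 at 38.8 and 14.5. Replicate 1 exceeded replicate 2 for each of the 10 genes, and every neighbouring pair in this order overlapped.

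**Figure D1:**
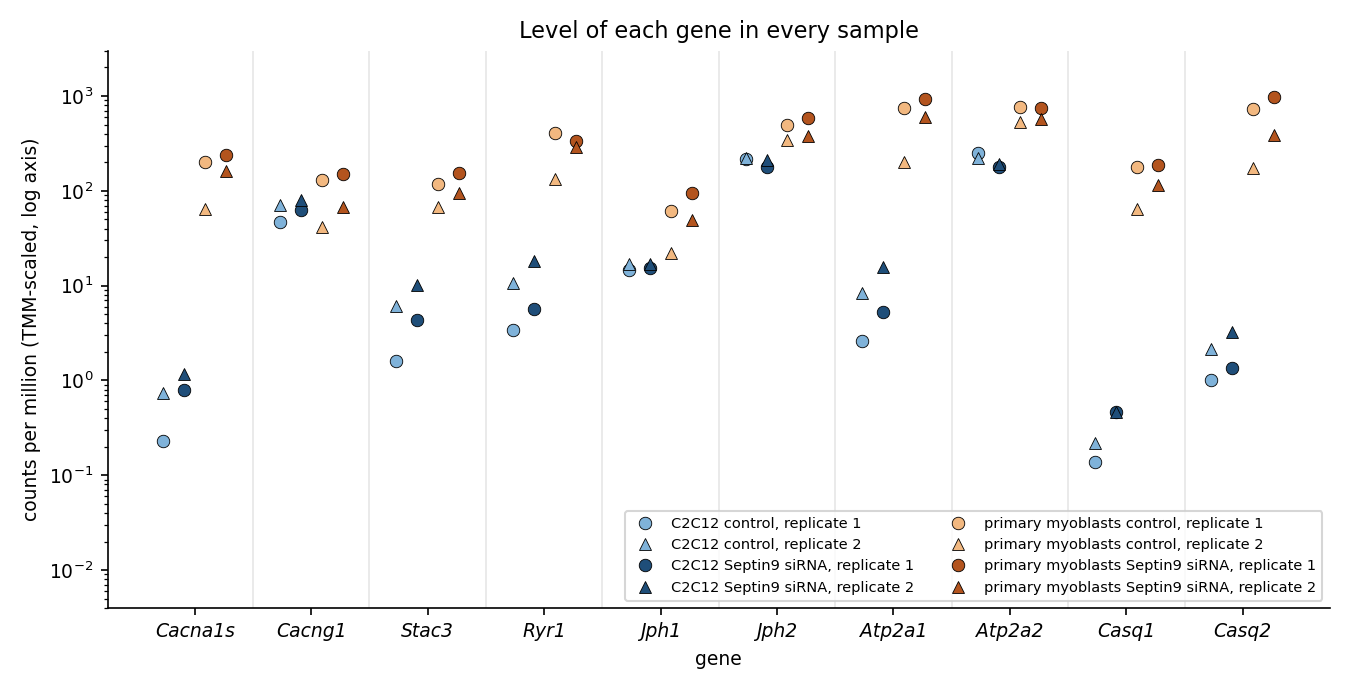
CPM, normalized by TMM, of each gene in every sample, on a log axis. Blue symbols are C2C12 cells and orange symbols primary myoblasts, light for control and dark for Septin9 siRNA, with circles for replicate 1 and triangles for replicate 2. Casq1 ran from 0.137 CPM in a control C2C12 sample to 188 CPM in a Septin9-deficient primary myoblast sample, whereas Jph2 stayed between 179 and 592 CPM.

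Control primary myoblasts exceeded control C2C12 cells for 8 of the 10 genes, compared with 33.3% of all 17103 genes tested that differed in either direction and 17.5% that were higher. A gene was called when edgeR's quasi-likelihood test gave a Benjamini-Hochberg adjusted p under 0.05 and the fold change was at least 1.5. The log2 fold changes were 9.33 (SE 0.80) for Casq1, 8.16 (SE 0.99) for Casq2, 8.06 (SE 0.88) for Cacna1s, 6.41 (SE 0.98) for Atp2a1, 5.25 (SE 0.86) for Ryr1 and 4.58 (SE 0.71) for Stac3, with adjusted p from 0.00468 to 0.014. Atp2a2 and Jph2 were higher by 1.45 (SE 0.23, adjusted p = 0.0132) and 0.96 (SE 0.22, adjusted p = 0.0311). Jph1 (1.40, SE 0.50, adjusted p = 0.0845) and Cacng1 (0.55, SE 0.57, adjusted p = 0.483) were not called. The 10 genes had a median of 4.92, compared with 0.01 over all genes. Cell type, medium and time after transfection differ together here and cannot be told apart. Without control replicate 1 of C2C12 cells 2 genes were called, Casq1 and Stac3, and without control replicate 2 of C2C12 cells 0 were.

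To ask how loss of Septin9 affected this gene set, Septin9-deficient and control samples were compared within each cell type, with the independent experiment as a block. In C2C12 cells 3 of the 10 genes rose, Ryr1, Atp2a1 and Stac3, and 0 fell, while 1.57% of the 15814 genes tested were called, 0.828% as higher. The 10 genes had a median change of 0.65 on the log2 scale, against -0.00 over all genes. In primary myoblasts 4 of 10 rose, Atp2a1, Jph1, Casq2 and Cacna1s, and 0 fell, while 3.17% of 17117 genes were called, 2.87% as higher. Here the median was 0.47, against 0.01. At the adjusted p alone, 5 of 10 passed in C2C12 cells (6.75% of all genes) and 6 of 10 in primary myoblasts (4.99%). Of the 5 in C2C12 cells, Atp2a2 was lower (-0.36 on the log2 scale). Both replicate pairs were higher for 7 of 10 genes and lower for 2 in C2C12 cells, where this held for 31.3% and 30.4% of all genes, and higher for 8 and lower for 0 in primary myoblasts (32% and 29.5%). Atp2a1, the fast-twitch SERCA pump, was called in both cell types, whose comparisons share no sample. In primary myoblasts this call held with other filters on low counts. It was lost with RLE scaling (adjusted p = 0.0932 by edgeR), library size scaling (0.103) and DESeq2 with the block (0.894).

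**Figure D2:**
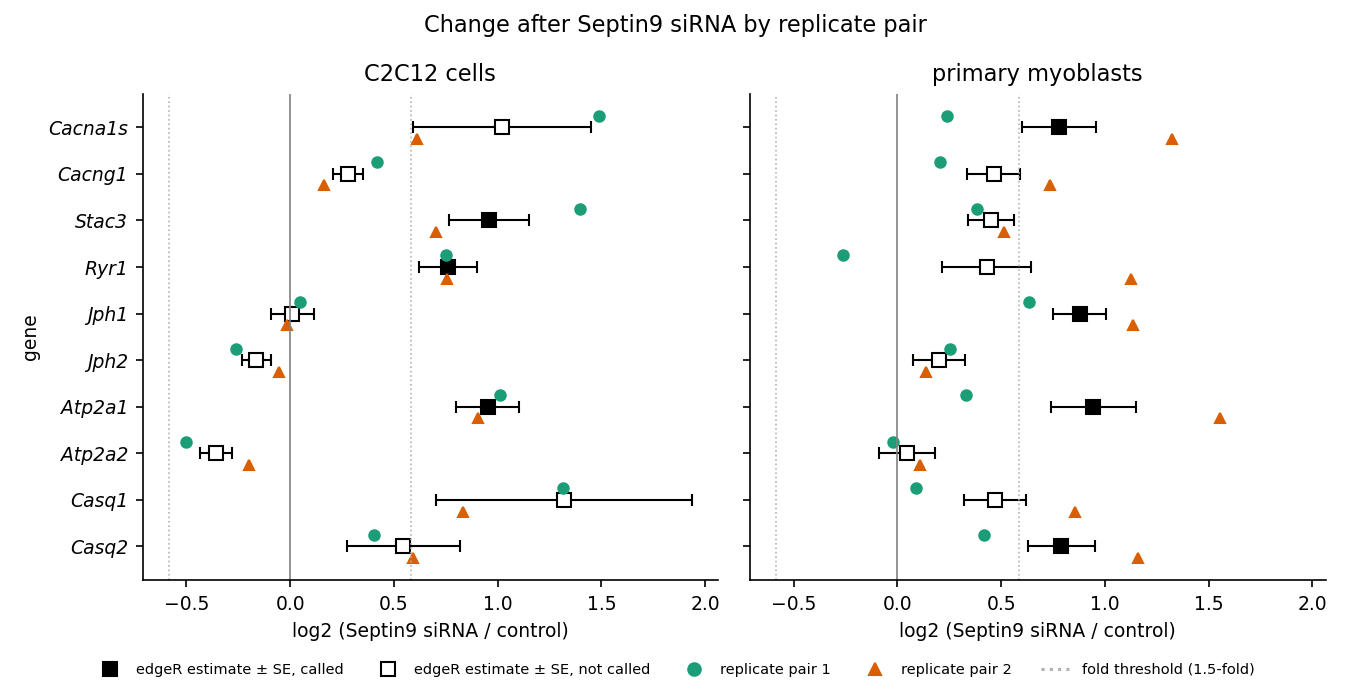
Log2 ratio of Septin9-deficient to control for each gene, in C2C12 cells (left) and primary myoblasts (right). Squares are edgeR estimates with their standard error, filled where the gene was called, circles and triangles are the ratios within replicate pairs 1 and 2, and dotted lines mark the 1.5-fold threshold. In C2C12 cells Atp2a2 and Jph2 lie left of 0 in both pairs, and in primary myoblasts pair 2 lies right of pair 1 for all genes but Jph2.

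Of the voltage sensor complex, Cacna1s (chr1:136052806-136119822 in RefSeq on GRCm38.p6), the pore-forming subunit of CaV1.1, was measured at 0.228 and 0.736 CPM in control C2C12 cells (replicates 1 and 2) and at 0.793 and 1.17 CPM in Septin9-deficient cells. Both Septin9-deficient samples were above both controls in CPM alone. The reads overlapped, with 5 and 20 in controls against 17 and 28 in Septin9-deficient cells. The log2 fold change of 1.02 (SE 0.43) did not pass (adjusted p = 0.193). In primary myoblasts Cacna1s was at 202 and 64.6 CPM in controls and at 239 and 162 CPM after Septin9 siRNA. It was higher within each experiment, by 0.24 and 1.33 on the log2 scale, although Septin9-deficient replicate 2 stayed below control replicate 1. This gave a log2 fold change of 0.78 (SE 0.18, adjusted p = 0.0152). Its upstream run above is 1 of those with 2 E-boxes.

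Cacng1 (chr11:107703218-107716476) encodes the gamma subunit of the same channel. Control C2C12 cells had 47.0 and 70.7 CPM and Septin9-deficient ones 62.8 and 79.1 CPM. Control primary myoblasts had 131 and 41.1 CPM and Septin9-deficient ones 150 and 68.3 CPM. The groups overlapped in both cell types, and the higher value was in the Septin9-deficient sample in all 4 pairs. Log2 fold changes were 0.28 (SE 0.07, adjusted p = 0.0257) and 0.46 (SE 0.13, adjusted p = 0.0429), both under the fold threshold.

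Stac3 (chr10:127501617-127508823), the adaptor that links CaV1.1 to the release machinery, was at 1.59 and 6.14 CPM in control C2C12 cells and at 4.34 and 10.1 CPM after Septin9 siRNA. It rose within each experiment, by 1.40 and 0.70 on the log2 scale, and by 0.96 in the fit (SE 0.19, 1.95-fold, adjusted p = 0.00416), while Septin9-deficient replicate 1 was below control replicate 2. In primary myoblasts it was at 119 and 67.0 CPM in controls and at 156 and 95.7 CPM in Septin9-deficient cells. The 2 pairs were alike there, with 0.38 and 0.51 on the log2 scale, and the log2 fold change of 0.45 (SE 0.11, adjusted p = 0.0219) was under the fold threshold.

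The release channel Ryr1 was measured at 3.37 and 10.7 CPM in control C2C12 cells and at 5.73 and 18.1 CPM in Septin9-deficient cells. The ratio was nearly the same in both experiments, 0.75 and 0.76 on the log2 scale, on a 3.11-fold difference between the experiments themselves. The fit gave 0.76 (SE 0.14, 1.70-fold, adjusted p = 0.00193). In primary myoblasts Ryr1 was at 404 and 133 CPM in controls and at 337 and 290 CPM after Septin9 siRNA. It was lower in Septin9-deficient cells in pair 1 (-0.26) and higher in pair 2 (1.13), and the estimate of 0.43 (SE 0.21, adjusted p = 0.326) did not pass. Without replicate 2 the sign turned, to -0.27. Ryr1 at chr7:29003340-29125179 overlaps Gm38979, Gm26604 and Mir1963, and the strand setting of the counting is not given in the sources used here.

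The relatives of the channel did not follow it across the cell types. Ryr3, the isoform common in immature muscle, was at 25.1 and 64.5 CPM in control C2C12 cells and at 5.80 and 1.45 CPM in control primary myoblasts, lower by 3.63 on the log2 scale (SE 0.81, adjusted p = 0.0283). After Septin9 siRNA its estimates were 0.20 (adjusted p = 0.108) and 0.45 (adjusted p = 0.517). The cardiac isoform Ryr2 had at most 0.0859 CPM in any sample and was not tested.

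At the triad, Jph1 (chr1:16942104-17097922), the junctophilin of skeletal muscle, was at 14.7 and 16.998 CPM in C2C12 controls and at 15.2 and 16.8 CPM after Septin9 siRNA, which left the groups overlapping and the log2 fold change at 0.01 (SE 0.10, adjusted p = 0.979). In primary myoblasts it was at 61.0 and 22.3 CPM in controls and at 94.7 and 49.1 CPM after Septin9 siRNA. It was higher within each experiment, by 0.63 and 1.14, although Septin9-deficient replicate 2 was below control replicate 1. The log2 fold change was 0.88 (SE 0.13, 1.84-fold, adjusted p = 0.000596). Jph1 overlaps the predicted gene Gm46085.

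Jph2 (chr2:163336242-163398049), which is also the cardiac junctophilin, was at 214 and 221 CPM in control C2C12 cells and at 179 and 213 CPM in Septin9-deficient cells. Both Septin9-deficient samples were below both controls, with a log2 fold change of -0.16 (SE 0.07, adjusted p = 0.215). In primary myoblasts the controls were at 496 and 342 CPM and the Septin9-deficient samples at 592 and 377 CPM, overlapping, with 0.20 (SE 0.13, adjusted p = 0.473). Jph2 overlaps Gm35750. Jph3 had 0 reads in all C2C12 samples and at most 0.387 CPM in primary myoblasts, and Jph4 had at most 0.669 CPM in any sample.

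Of the pumps, Atp2a1 (SERCA1) was at 2.59 and 8.46 CPM in control C2C12 cells and at 5.32 and 15.9 CPM after Septin9 siRNA. It was higher by 1.01 and 0.90 on the log2 scale within the 2 experiments, and by 0.95 in the fit (SE 0.15, 1.94-fold, adjusted p = 0.000554). In primary myoblasts it was at 741 and 204 CPM in controls and at 933 and 598 CPM in Septin9-deficient cells. Pair 1 gave 0.33 and pair 2 gave 1.55, and the fit gave 0.94 (SE 0.21, 1.92-fold, adjusted p = 0.0108). Septin9-deficient replicate 1 of C2C12 cells lay below control replicate 2, and Septin9-deficient replicate 2 of primary myoblasts below control replicate 1, so the groups overlapped in both cell types. Atp2a1 lies at chr7:126445858-126463103, where it overlaps Rabep2.

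Atp2a2 (SERCA2, chr5:122453513-122502225), the pump of slow and cardiac muscle that is also present in most other cells, was at 253 and 222 CPM in control C2C12 cells and at 179 and 193 CPM in Septin9-deficient cells. Both Septin9-deficient samples were below both controls. Its log2 fold change of -0.36 (SE 0.08, adjusted p = 0.00677) passed the adjusted p and was under the fold threshold. In primary myoblasts it was at 761 and 531 CPM in controls and at 750 and 571 CPM after Septin9 siRNA, a log2 fold change of 0.05 (SE 0.13, adjusted p = 0.919). As a share of the summed TPM of both pumps, Atp2a1 made up 1.76% and 6.26% in control C2C12 cells and 4.95% and 12.6% in Septin9-deficient cells. In primary myoblasts the share was 63.0% and 40.2% in controls and 68.5% and 64.7% after Septin9 siRNA. The share was higher in the Septin9-deficient sample of all 4 pairs, which was not tested.

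**Figure D3:**
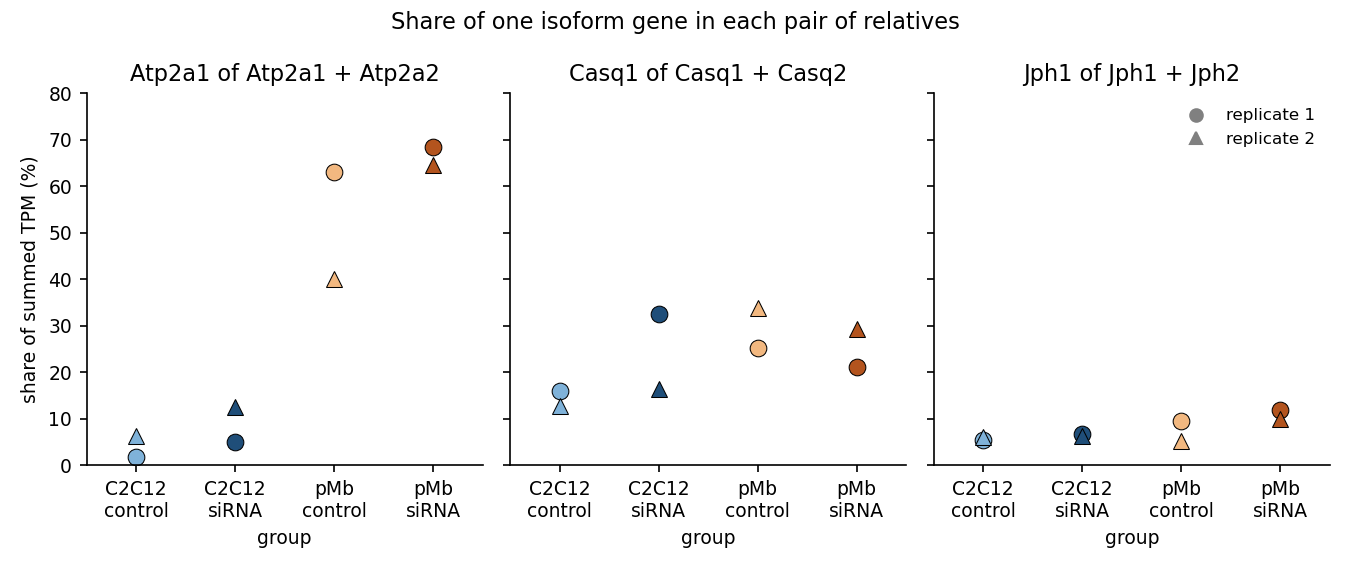
Share (%) of the summed TPM of a pair of related genes that came from the first of them, by group, for the pumps (left), calsequestrins (middle) and junctophilins (right), with pMb standing for primary myoblasts. Circles are replicate 1 and triangles replicate 2. The share of Atp2a1 lies between 1.76% and 12.6% in C2C12 samples and between 40.2% and 68.5% in primary myoblasts.

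The pump inhibitors Sln, Pln and Mrln were rare. Sln (sarcolipin) had at most 1 read in any C2C12 sample and had 0.430 and 4.98 CPM in primary myoblast controls and 1.21 and 6.73 CPM after Septin9 siRNA (log2 fold change 0.70, SE 0.28, adjusted p = 0.193). Pln (phospholamban) stayed at or below 0.896 CPM and was not tested. Mrln (myoregulin) was between 2.28 and 7.32 CPM in C2C12 samples and between 1.26 and 5.42 CPM in primary myoblasts, with estimates of 0.06 (adjusted p = 0.934) and 0.79 (adjusted p = 0.0874). The third pump gene, Atp2a3, was at or below 5.63 CPM in every sample and did not pass in either cell type (adjusted p = 0.818 and 0.763).

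Of the store buffers, Casq1 (chr1:172209894-172219895), the calsequestrin of fast muscle, gave 3 and 6 reads (0.137 and 0.221 CPM) in control C2C12 cells and 10 and 11 reads (0.466 and 0.459 CPM) in Septin9-deficient cells. The groups did not overlap, and the log2 fold change of 1.32 had an SE of 0.62 (adjusted p = 0.254), so a change was not detectable at this depth. In primary myoblasts Casq1 was at 177 and 63.8 CPM in controls and at 188 and 116 CPM after Septin9 siRNA, with 0.47 (SE 0.15, adjusted p = 0.0791). Casq1 overlaps Gm17224.

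Casq2 (chr3:102086415-102146514), the calsequestrin of heart and slow muscle, was at 1.00 and 2.13 CPM in C2C12 controls and at 1.35 and 3.26 CPM after Septin9 siRNA, overlapping, with 0.55 (SE 0.27, adjusted p = 0.293). In primary myoblasts it was at 733 and 175 CPM in controls and at 980 and 392 CPM in Septin9-deficient cells. It was higher within each experiment, by 0.42 and 1.16 on the log2 scale, while Septin9-deficient replicate 2 was below control replicate 1. The log2 fold change was 0.79 (SE 0.16, 1.73-fold, adjusted p = 0.00722). Casq2 made up the larger part of the summed TPM of both calsequestrins in all 8 samples, with Casq1 between 12.7% and 33.8%.

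Without regard to the pairs, the groups did not overlap in CPM for 4 of 10 genes in C2C12 cells, where this held for 25.4% of all genes tested. In primary myoblasts it held for 0 of 10 genes and for 27.8% of all genes. The 4 were Casq1 and Cacna1s, with both Septin9-deficient samples higher, and Atp2a2 and Jph2, with both lower. The reads of Cacna1s overlapped. All siRNA calls above rest on the comparison within experiments. In an edgeR fit without the replicate block, 0 of 10 genes and 0% of all genes were called in each cell type, with 372 genes (C2C12) and 378 (primary myoblasts) at an unadjusted p under 0.05, 2 and 0 of the 10 among them. DESeq2 with the block called Atp2a1 in C2C12 cells (0.626% of all genes) and Casq2 and Jph1 in primary myoblasts (1.34%). DESeq2 on the batch-corrected counts of the authors, without the filter on low counts, called Ryr1 and Atp2a1 (0.494% of 24894 genes) and Jph1 (1.22% of 27062). In C2C12 cells that fit gave no adjusted p for Stac3, Casq1, Casq2 and Cacna1s, so they could not be called. DESeq2 with the block gave none for Casq1, Casq2 and Cacna1s there. In primary myoblasts the median log2 ratio over the 10 genes was 0.25 in pair 1 and 0.99 in pair 2, and without replicate 2 only Jph1 was called, compared with 7 genes without replicate 1. With RLE or library size scaling in place of TMM, Jph1 was likewise the only one called there. In C2C12 cells the medians were 0.58 and 0.60. Without replicate 1 of C2C12 cells Atp2a1 alone was called, and without replicate 2 Stac3 alone.

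The independent experiments themselves differed for these genes. In C2C12 cells replicate 2 exceeded replicate 1 for 4 of 10 genes, where 11.3% of all genes were called and 5.2% as higher. These were Ryr1 (log2 fold change 1.64, SE 0.14), Atp2a1 (1.61, SE 0.15), Stac3 (1.48, SE 0.20) and Casq2 (1.16, SE 0.28), with adjusted p from 3.6e-08 to 0.00293. In primary myoblasts replicate 2 was below replicate 1 for 8 of 10 genes, where 15.9% of all genes were called and 7.81% as lower. Casq2 (-1.67, SE 0.17), Cacng1 (-1.38, SE 0.13) and Atp2a1 (-1.23, SE 0.21) differed most among them, and Atp2a2 (-0.43) and Jph2 (-0.57) were under the fold threshold. The difference between experiments was larger than the siRNA effect for 6 of 10 genes in C2C12 cells, and for all 10 in primary myoblasts. Over all genes tested this held for 68.8% and 64%.

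Of the myogenic markers, 1 of 7 tested in C2C12 cells was called higher after Septin9 siRNA and 0 lower, and in primary myoblasts 1 of 8 was called higher and 1 lower. Over all genes, 0.828% were called higher in C2C12 cells, and 2.87% higher and 0.298% lower in primary myoblasts. The marker called higher was Myog (myogenin), a driver of differentiation, in both cell types. C2C12 controls had 5.19 and 37.5 CPM and Septin9-deficient C2C12 cells 15.9 and 63.7 CPM. Primary myoblasts had 1020 and 401 CPM as controls and 1550 and 908 CPM after Septin9 siRNA. It rose after Septin9 siRNA by 1.03 (SE 0.12, adjusted p = 2.28e-05) and 0.89 (SE 0.16, adjusted p = 0.00266) on the log2 scale. The marker called lower in primary myoblasts was Myf5, a factor of undifferentiated myoblasts (-0.78, SE 0.16, adjusted p = 0.00679). Between replicates, 4 of 7 myogenic markers were called higher in replicate 2 of C2C12 cells and 0 lower, where 5.2% of all genes were higher. In replicate 2 of primary myoblasts 5 of 8 were called lower and 0 higher, where 7.81% of all genes were lower. Of the fibroblast markers, 3 of 6 tested were called higher in replicate 2 of C2C12 cells (5.2% of all genes). In replicate 2 of primary myoblasts 5 of 5 were called higher (8.05% of all genes), and 0 were called lower in either cell type. After Septin9 siRNA, 0 fibroblast markers were called in either cell type. The part of myogenic stage or of fibroblastic cells in the values of the 10 genes was not tested.

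**Figure D4:**
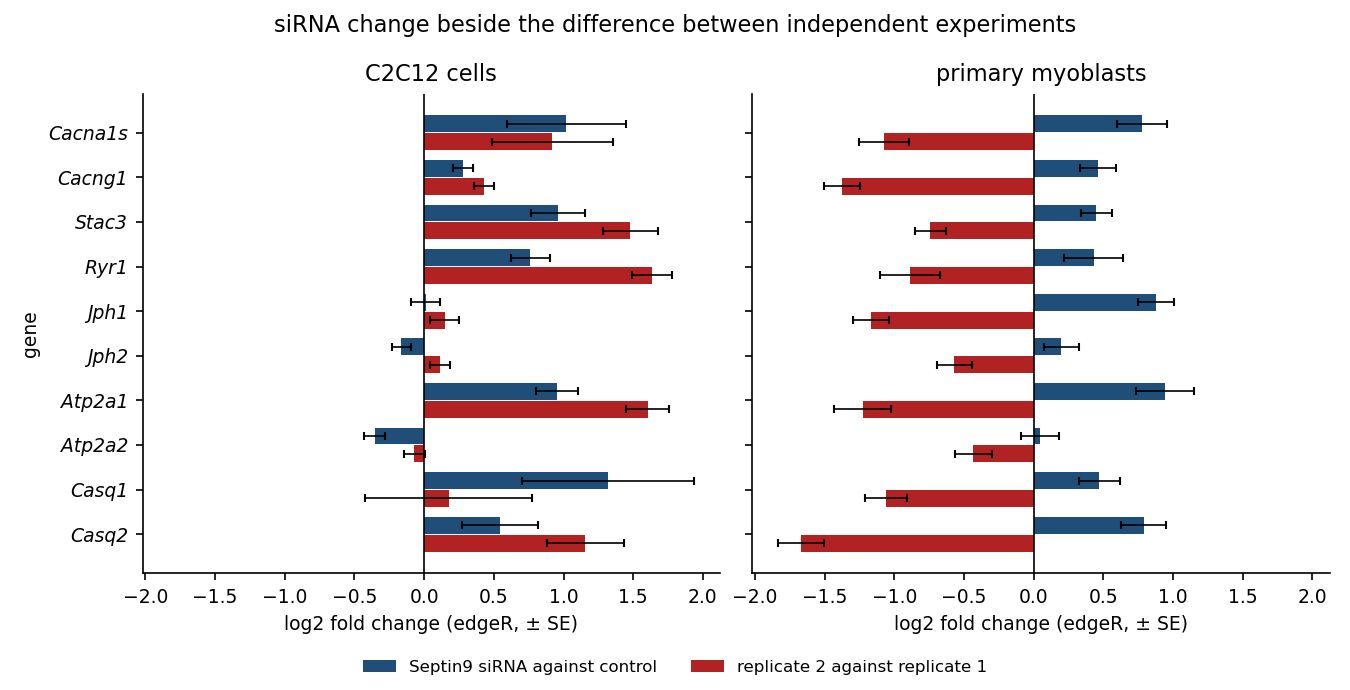
Log2 fold change with its standard error from edgeR for the siRNA comparison (blue) and for replicate 2 against replicate 1 (red), per gene, in C2C12 cells (left) and primary myoblasts (right). Bars of the replicate difference point right in C2C12 cells for 9 genes, all but Atp2a2, and left in primary myoblasts for all 10.

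To test whether the siRNA effect differed between the cell types, the interaction was fitted over all 8 samples. At the adjusted p alone, without a fold threshold, it was called for 0 of the 10 genes and for 0 of 17918 genes (0%) by edgeR. An unadjusted p under 0.05 was held by 4 of the 10 and by 1469 of all. DESeq2 called 21 genes (0.117%), none of the 10. Jph1 had the smallest p among them, with a larger effect in primary myoblasts by 0.86 on the log2 scale (SE 0.17, adjusted p = 0.284). It was followed by Atp2a2 (0.39, SE 0.15, adjusted p = 0.505), Jph2 (0.35, SE 0.13, adjusted p = 0.508) and Stac3 (-0.48, SE 0.20, adjusted p = 0.562). A call in one cell type and not in the other was therefore not shown to be a different effect. Without replicate 1 of primary myoblasts Atp2a1, Atp2a2, Cacng1 and Jph1 passed the interaction test, without replicate 2 Ryr1, Atp2a1 and Jph1 did, and without replicate 1 of C2C12 cells or without the filter on low counts Jph1 did.

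The wider pathway was examined with 69 other genes in 7 lists. In C2C12 cells 0 of the 51 tested were called, with 13 estimates under 0 and a median log2 change of 0.06. The adjusted p was passed by 5 of the 51, all below the fold threshold, where 6.75% of all genes tested passed it. These were Jsrp1, a triad protein (0.55), Tmem38a, a counter-ion channel of the store (0.44), and 1810037I17Rik, listed with the pumps and their regulators (0.41). Cacna2d1, a channel subunit (0.24), and Atp2b4, a plasma membrane calcium pump (-0.30), were the others. In primary myoblasts 1810037I17Rik also passed the adjusted p and stayed under the fold threshold.

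In primary myoblasts 12 of the 62 tested rose and 0 fell, with a median of 0.17, while 2.87% of all genes were called as higher and the median over all genes was 0.01. The count was 7 with RLE scaling, 5 with library size scaling, 4 without replicate 2, 18 without replicate 1 and 0 without the replicate block. Trdn, Tmem38a and Stim1 were called in each of these but the fit without the block. The largest estimate was that of Trdn (triadin), which anchors calsequestrin to the ryanodine receptor, at 51.8 and 16.4 CPM in controls and 93.0 and 44.5 CPM after Septin9 siRNA (log2 fold change 1.13, SE 0.14, adjusted p = 0.000128). Its partner Hrc, a calcium-binding protein of the store, rose by 0.87 (SE 0.16, adjusted p = 0.00357). Of the channel subunits, Cacnb1, the beta subunit of CaV1.1, rose by 0.73 and Cacng6 by 0.86. Cacna2d1 (0.51, adjusted p = 0.0134) stayed under the fold threshold, and Cacna1c, the cardiac pore subunit, gave 0.13 (adjusted p = 0.865).

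In the store membrane and lumen, Tmem38a and Tmem38b, the TRIC channels, rose by 1.00 and 0.66, and Srl (sarcalumenin) by 0.81. Stim1, the calcium sensor of the store, was at 39.0 and 29.4 CPM in controls and at 59.8 and 55.5 CPM in Septin9-deficient cells, groups that did not overlap (0.77, SE 0.12, adjusted p = 0.000851). In C2C12 cells Stim1 was between 20.9 and 22.4 CPM in every sample. Slc8a3, a sodium-calcium exchanger (1.00), Cav3, the muscle caveolin (0.68), Scn4a, the sodium channel of skeletal muscle (0.73), and Kcnn3, a calcium-activated potassium channel (0.69, adjusted p = 0.0495), made up the rest. Of these 12 genes, 10 were also called lower in replicate 2 than in replicate 1, all but Slc8a3 and Stim1, where 7.81% of all genes were. Stim1 was lower in replicate 2 as well, by the CPM above, and was not called. In C2C12 cells Cacng6, Trdn, Slc8a3, Cav3 and Scn4a had between 1 and 22 reads per sample and were not tested. The adaptor Stac2 was at 76.9 and 68.4 CPM in control C2C12 cells and at 13.8 and 43.8 CPM in control primary myoblasts, with estimates after Septin9 siRNA of 0.13 (adjusted p = 0.306) and 0.04 (adjusted p = 0.919). Stac was at or below 0.260 CPM.

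**Figure D5:**
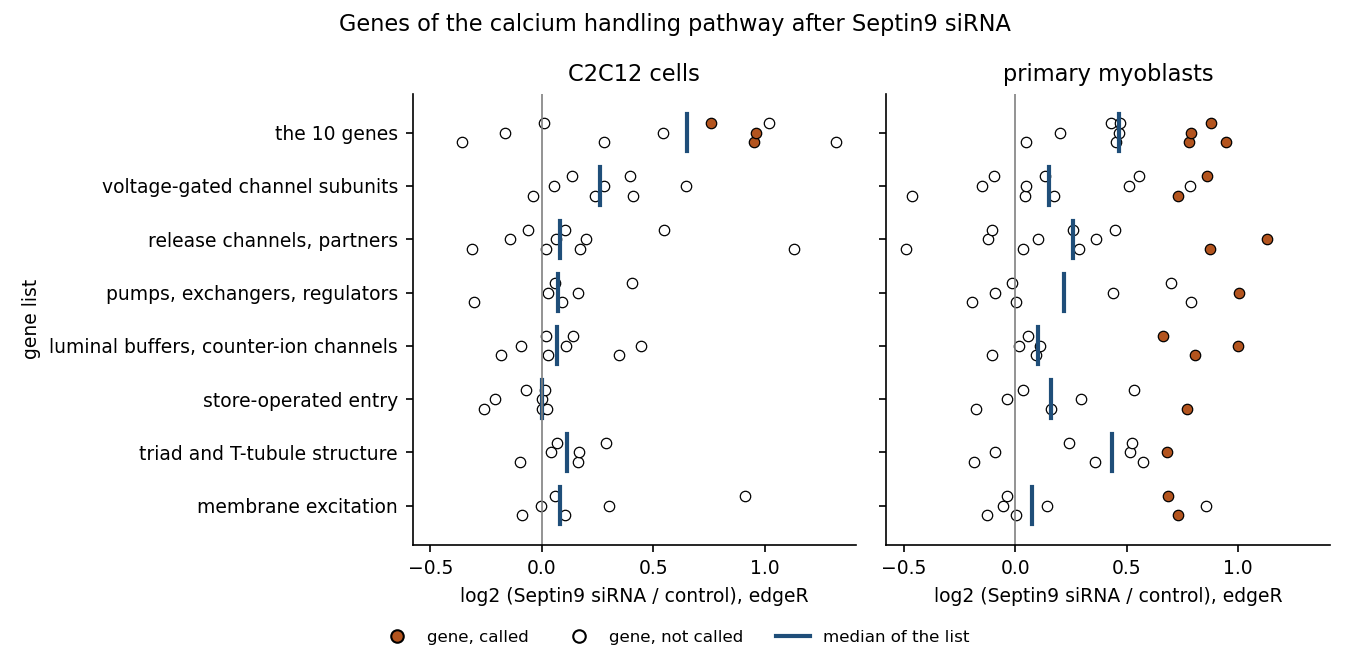
Log2 fold change after Septin9 siRNA of each tested gene, by list, in C2C12 cells (left) and primary myoblasts (right). Filled points were called, open points were not, and the blue bar is the median of the list. In C2C12 cells the filled points are the 3 among the 10 genes, and in primary myoblasts each list holds at least 1.

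Finally, genes with a similar pattern were sought among 15073 genes tested in both cell types, by Pearson's r over the 8 samples with the mean log2 CPM of the 10 genes, centred within each cell type. The closest outside the lists were Tnnc1 (r = 0.994), the troponin C of slow and cardiac muscle, Gpc1 (r = 0.994), a glypican, Neurl1a (r = 0.991), 4931402G19Rik (r = 0.991) and Mylpf (r = 0.990), a myosin light chain of fast muscle. This centring left the difference between experiments in r, so a high r does not show a shared siRNA effect. In edgeR's siRNA test Tnnc1, Neurl1a and Mylpf passed the adjusted p in both cell types. Gpc1 (log2 fold change 0.12 in C2C12 cells and 0.17 in primary myoblasts) and 4931402G19Rik (0.36 and 0.31) passed in neither. Among the 10 genes themselves r ran from 0.317 for Atp2a2 and 0.707 for Jph2 to 0.985 for Casq2. Each of the 10 is part of the mean it was compared with, which raises its r. These values are therefore not comparable with those of the outside genes. The 8 points come from 2 experiments per cell type, and samples of 1 experiment are not independent.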

How the data were processed

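RNA of 8 samples was sequenced after poly(A) selection. Per the labels and the submitters' processing notes, the authors mapped reads to GRCm38.p6 (mm10) with STAR 2.7.2 and counted them per gene with featureCounts 2.0.1, and the raw counts were deposited without normalization. The strand setting of the counting is not given in the sources used here. A second deposited table per cell type holds a normalized signal, which the authors made with ComBat-Seq and the size factors of DESeq2 1.40.1. Its values were whole multiples of 1 read in 100% of cases, and the recovered counts served for 1 alternative. In the raw counts, 16 broken lines (5 genes) were left out, which removed none of the genes named here. No column with values was left unassigned (0).

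Counts were filtered with filterByExpr, normalized by TMM and tested in R 4.3.3 with edgeR 4.0.16 (quasi-likelihood test, Benjamini-Hochberg adjustment over all genes tested). The siRNA was tested per cell type with the replicate number as a block, the controls of both cell types without one, and the interaction over all 8 samples. Calls needed an adjusted p under 0.05 and a change of at least 1.5-fold, the study's thresholds, except for the interaction, which was called at the adjusted p alone. The numbers pair the samples as independent experiments, although the labels give only the number. Deviations of same-numbered samples correlated over genes with r = 0.678 (C2C12, 2 pairs) and 0.819 (primary myoblasts, 2 pairs). CPM are TMM-normalized over all 8 samples, pair ratios use log2 CPM with a prior count of 2, and TPM use the union of exons of GENCODE M21. Groups hold 2 samples, so p-values cover the spread in these samples only. In the blocked tests this is how far the 2 experiments disagree in their siRNA ratio, with information on variance shared across genes. In the control comparison it is the spread between replicates.

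The members and gene lists were chosen with earlier results of these data known. The 10 members were all named, and of the other pathway genes those called, relatives of members, pump regulators and the 5 genes most like the members. Other genes were named after their values were seen. Alternatives were RLE or library size scaling, other filters, no fold threshold, further copies of genes (2379) left out, another block, DESeq2 1.42.0, the batch-corrected counts, 1 fit of all samples and single replicates left out. Fits were also run on simulated data in which the planted effect was the same in both replicates. Those runs do not cover replicate pairs that differ, as the pairs of primary myoblasts did.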

Additional observations from a re-analysis of the deposited data

Results flagged for a closer look

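Groups of 2 samples allow no test for single outlying samples. Of 60 genes of the pathway tested in both cell types, 3 had replicate pairs that all pointed one way in C2C12 cells and all the other way in primary myoblasts, a pattern held by 12.4% of all genes. Jph2 was lower after Septin9 siRNA in both C2C12 pairs (-0.26 and -0.05 on the log2 scale) and higher in both primary myoblast pairs (0.25 and 0.14), and the difference between the siRNA effects was 0.35 (SE 0.13, adjusted p = 0.508 by edgeR's interaction test). Orai1, the pore of store-operated entry, was likewise lower in C2C12 cells (-0.31 and -0.19) and higher in primary myoblasts (0.31 and 0.76), with a difference of 0.78 (SE 0.20, adjusted p = 0.343). Cacng7, a channel subunit, was higher in C2C12 cells (0.79 and 0.09) and lower in primary myoblasts (-0.18 and -0.13), with a difference of -0.57 (SE 0.29, adjusted p = 0.666). None of these differences passed the test.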

How the results depend on the processing

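The replicate block decided the calls. Without it 0 of the 10 genes were called in either cell type and 0 of the other pathway genes in primary myoblasts. With the control comparison blocked by replicate number, 7 genes were called in place of 8. Of the 10 genes, the 3 calls in C2C12 cells became 1 with DESeq2 (Atp2a1), 1 with all 8 samples in one fit (Stac3), 5 without a fold threshold and 1 without either replicate (lowest and highest 1). The 4 calls in primary myoblasts became 1 with RLE, with library size alone and with DESeq2 on the batch-corrected counts (Jph1 each time), 2 with DESeq2, and from 1 to 7 without single replicates. Jph1 was called under each alternative run with the block. Of other pathway genes in C2C12 cells, 1 (Kcnj12) was called with library size alone, without a filter, with at least 10 counts in every sample and with further copies left out, 5 without a fold threshold, and from 0 to 1 without single replicates. The 12 of primary myoblasts became 7 with RLE, 5 with library size and from 4 to 18 without single replicates. The 8 genes that differed between primary myoblast replicates became 5 with DESeq2. The control comparison ranged from 0 to 10 without single samples. The interaction gave 1 (Jph1) without a filter and from 0 to 4 without single replicates. In fits that leave out a replicate, the lone samples are assumed to vary like the other cell type. Signs turned for Jph1 in C2C12 cells, -0.0083 on the log2 scale without a filter and from -0.013 to 0.047 without single replicates, and in primary myoblasts for Ryr1 (from -0.27 to 1.13 without single replicates) and Atp2a2 (from -0.025 to 0.11). With the longest transcript as gene length, control C2C12 TPM were 115 for Atp2a2, 9.01 for Jph1 and 141 for Jph2. The cause of these shifts was not tested. With 3 to 28 reads per C2C12 sample for Casq1 and Cacna1s, depth limits both genes.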
